A study of Homo sapiens with 2 samples.

Results

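Kinesins are the motor proteins that walk along microtubules or take them apart, and the genes described here are the human kinesin superfamily apart from KIF2C. Members were the rows whose symbol is KIF or KIFC with a number and at most 1 further letter, the kinesin light chains KLC1 to KLC4, and CENPE, with KIF2C left out. They came to 44 of the 16951 genes in the table. By their known function, 14 were classed as mitotic, 21 as transport, 5 as cilium and 4 as other kinesins. FaDu, the cell line sampled at day 2, was established from a hypopharyngeal squamous carcinoma. Per the labels, 1 library carried an shRNA (a short hairpin RNA that leads to the decay of a matching mRNA) against KIF2C and 1 carried a control shRNA. The study asked how KIF2C bears on proliferation and motility.

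Mitotic kinesins build the spindle, line up the chromosomes and complete cytokinesis, and in dividing cells their genes are mostly switched on late in the cell cycle. Transport kinesins carry vesicles, organelles and protein complexes along microtubules between divisions, and several of them serve mainly neurons. Conventional kinesin pairs heavy chains, which hold the motor, with light chains, which bind cargo. A group of kinesins works in or at cilia.

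The table names its libraries D1 and C1, and no label spells out which is which. KIF2C, a kinesin-13 that removes tubulin from microtubule ends, had 3036 reads in library D1 and 783 in library C1 (log2 ratio 2.04, 95% counting interval 1.93 to 2.16). The lower KIF2C count in library C1 goes against reading C as control and D as knock-down, and no label settles it. Every ratio below is therefore library D1 over library C1, not knockdown over control. Library D1 held 18560024 and library C1 18189742 estimated counts. With 1 library per condition there was no replicate, so no difference below could be tested, and all intervals cover counting error only. The squamous markers KRT5, KRT14, KRT6A, TP63, CDH1, EPCAM, DSG3 and DSC3 were all present, and their summed level was 3174.86 TPM in library D1 and 1019.72 TPM in library C1. KRT5 carried most of that sum, with 2061.13 and 336.29 TPM. In library D1 6 of the 8 markers were higher by 2-fold or more, against 2.40% of the 13225 genes counted below. EPCAM and CDH1 were not, with log2 ratios of -0.08 and -0.19. TPM (transcripts per 1000000) is a level per transcript length. The part of this difference in the kinesin values was not tested. The 4 leukocyte markers with a row summed to 13.42 TPM in library D1 and 22.57 TPM in library C1, most of it CD14, with 120 and 215 reads (log2 ratio -0.75), while PTPRC had 11 and 15. The 3 endothelial markers summed to 7.40 TPM in library D1 and 29.20 TPM in library C1, most of it CDH5, with 249 and 1000 reads (-1.91), while PECAM1 had 13 and 12. The part of these markers in the kinesin values was not tested either. In such bulk RNA, fewer cells that express a gene and less of its RNA per cell cannot be told apart.

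Together the 44 kinesin genes summed to 1196.06 TPM in library D1 and 1210.87 TPM in library C1. Mitotic kinesins made up 56.91% of that sum in library D1 and 54.67% in library C1, and transport kinesins 40.70% and 42.61%. The mitotic sum was thus 1.40 times the transport sum in library D1 and 1.28 times in library C1. With KIF2C counted in, KIF2C alone was 9.05% of all kinesin TPM in library D1 and 2.57% in library C1. The most abundant members in both libraries were a mitotic motor and a light chain. KIF22, a chromokinesin that pushes chromosome arms away from the poles, had 140.92 TPM in library D1 and 154.25 in library C1, and KLC2 had 115.05 and 106.67 TPM. The third place was held by KIF23, the motor subunit of centralspindlin, with 95.73 TPM in library D1, and by KIFC1, a minus-end motor that focuses spindle poles, with 93.10 TPM in library C1.

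**Figure D1:**
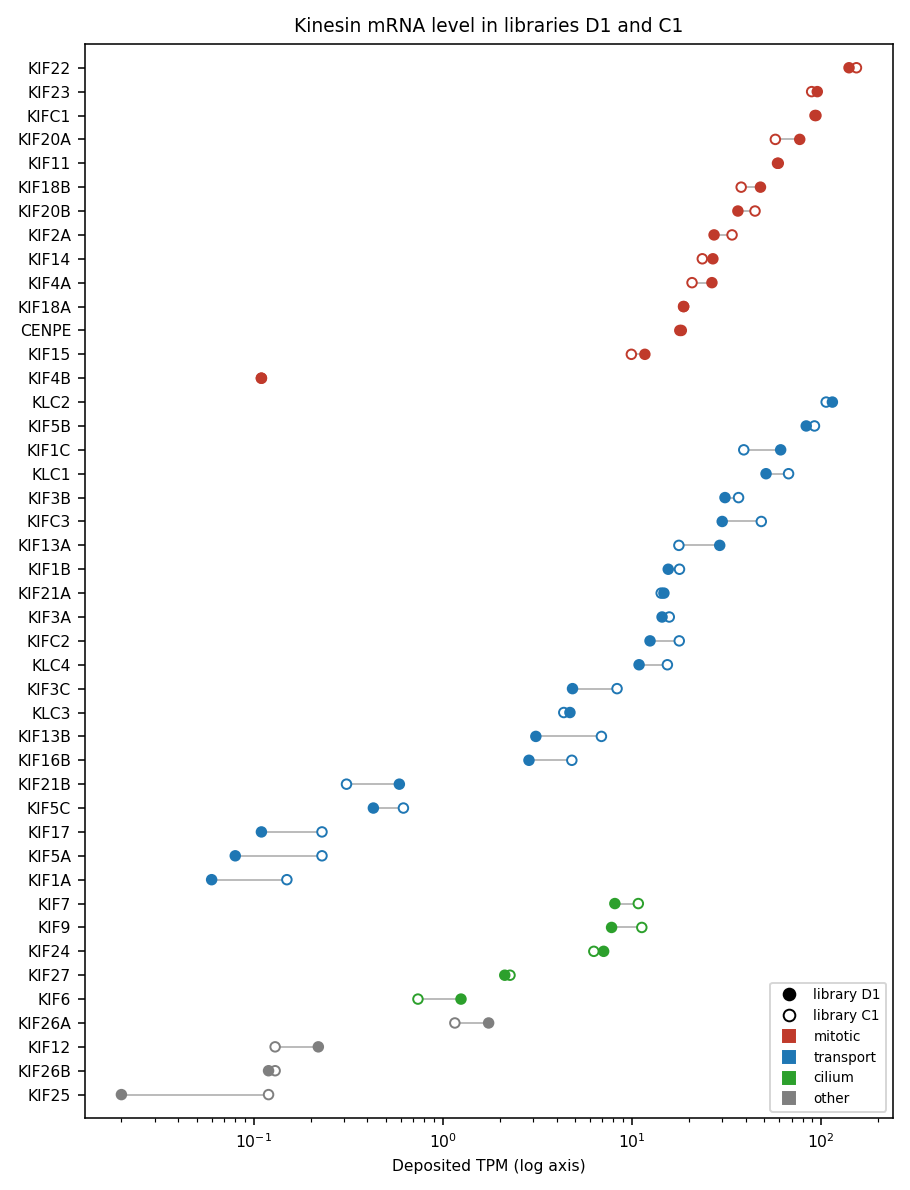
Deposited TPM (log axis) of each of the 44 kinesin genes, filled in library D1 and open in library C1, coloured by class and ordered by level in library D1 within the class. All mitotic kinesins but KIF4B lay between 9.95 and 154.25 TPM, whereas transport kinesins ran from 0.06 to 115.05 TPM.

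The promoters of most mitotic kinesins shared letters that were less frequent among transport kinesins and among all promoters. The cell cycle genes homology region (CHR) is a short element bound by the DREAM and MuvB complexes in genes that peak in mitosis, and the CCAAT box is bound by NF-Y. RefSeq windows of 300 bases, 250 before and 50 after the gene start in GRCh38.p14, were at hand for 35 members. These included all 14 mitotic but only 14 of 21 transport kinesins. KIF21B, KLC2, KIFC2, KLC4, KIFC3, KIF13B and KIF5A had none. They were searched on both strands for the CHR as TTTGAA or TTCGAA and for the CCAAT box as CCAAT. A CHR was found in 11 of 14 mitotic kinesins (78.6%), 1 of 14 transport kinesins (7.14%) and 16.6% of all 27305 promoters. A CCAAT box was found in 11 of 14 mitotic kinesins, 3 of 14 transport kinesins (21.4%) and 35.7% of all promoters. Both stood in 10 of 14 mitotic kinesins (71.4%) and 1 of 14 transport kinesins (7.14%), against 6.58% of all promoters. Among the 10781 windows of genes that reached the minimum level used below, 11.3% held a CHR, 36.5% a CCAAT box and 4.78% both. For the CHR and for both motifs, the transport kinesins thus lay near the share of other genes. KIF4B, an intronless copy of KIF4A, is among the mitotic kinesins with both. In KIF4A and KIF4B the first letters of the motifs lay 24 bases apart, so these may not be separate cases. Windows of transport kinesins were richer in G and C, with a median of 71.5% against 62.5% in mitotic kinesins and 58.3% in all promoters, and the part of that in the counts was not tested.

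The 150 bases before the start are given for 4 mitotic kinesins with their motif layout, for KIF5B as the transport kinesin holding both motifs, and for KIF13A and KIF1C, the abundant transport kinesins with the highest ratios. Each reads 5' to 3' along the gene, and capitals mark the CHR and CCAAT matches, of which ATTGG and TTCAAA are matches on the other strand.
KIF4A, chrX:70289954-70290103, plus strand: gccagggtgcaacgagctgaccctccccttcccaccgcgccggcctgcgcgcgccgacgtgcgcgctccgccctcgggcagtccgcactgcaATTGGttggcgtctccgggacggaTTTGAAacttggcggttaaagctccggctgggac
KIF20A, chr5:138178962-138179111, plus strand: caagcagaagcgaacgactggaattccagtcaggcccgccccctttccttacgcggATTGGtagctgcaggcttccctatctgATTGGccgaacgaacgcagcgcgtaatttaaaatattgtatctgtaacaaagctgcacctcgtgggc
KIF23, chr15:69414199-69414348, plus strand: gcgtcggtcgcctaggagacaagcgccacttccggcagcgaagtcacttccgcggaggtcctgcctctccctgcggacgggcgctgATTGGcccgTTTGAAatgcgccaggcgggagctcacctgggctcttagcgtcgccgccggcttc
KIF11, chr10:92592980-92593129, plus strand: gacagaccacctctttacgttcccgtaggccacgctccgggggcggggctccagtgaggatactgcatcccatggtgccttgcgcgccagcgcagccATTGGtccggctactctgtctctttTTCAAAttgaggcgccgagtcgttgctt
KIF5B, chr10:32056426-32056575, minus strand: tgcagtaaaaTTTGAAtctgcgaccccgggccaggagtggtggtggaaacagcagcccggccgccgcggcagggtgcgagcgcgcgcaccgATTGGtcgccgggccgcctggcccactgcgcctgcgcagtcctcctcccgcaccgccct
KIF13A, chr6:17987636-17987785, minus strand: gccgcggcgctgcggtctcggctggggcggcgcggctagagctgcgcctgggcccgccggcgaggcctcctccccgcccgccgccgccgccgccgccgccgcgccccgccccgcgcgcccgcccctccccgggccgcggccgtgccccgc
KIF1C, chr17:4997800-4997949, plus strand: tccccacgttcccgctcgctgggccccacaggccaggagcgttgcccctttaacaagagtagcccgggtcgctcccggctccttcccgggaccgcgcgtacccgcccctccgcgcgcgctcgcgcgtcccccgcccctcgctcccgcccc
In KIF4A the CCAAT box began 58 bases and the CHR 34 bases before the start. In KIF11 they began 53 and 28 bases before it, and in KIF23 only 9 bases lay between the first letters of the motifs. In KIF5B the order was the other way round, with the CHR 140 and the CCAAT box 59 bases before the start. KIF20A held 2 CCAAT boxes and no CHR in its window, and CENPE and KIF2A held neither. KIF13A and KIF1C had no match. A match is a description of letters only.

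**Figure D2:**
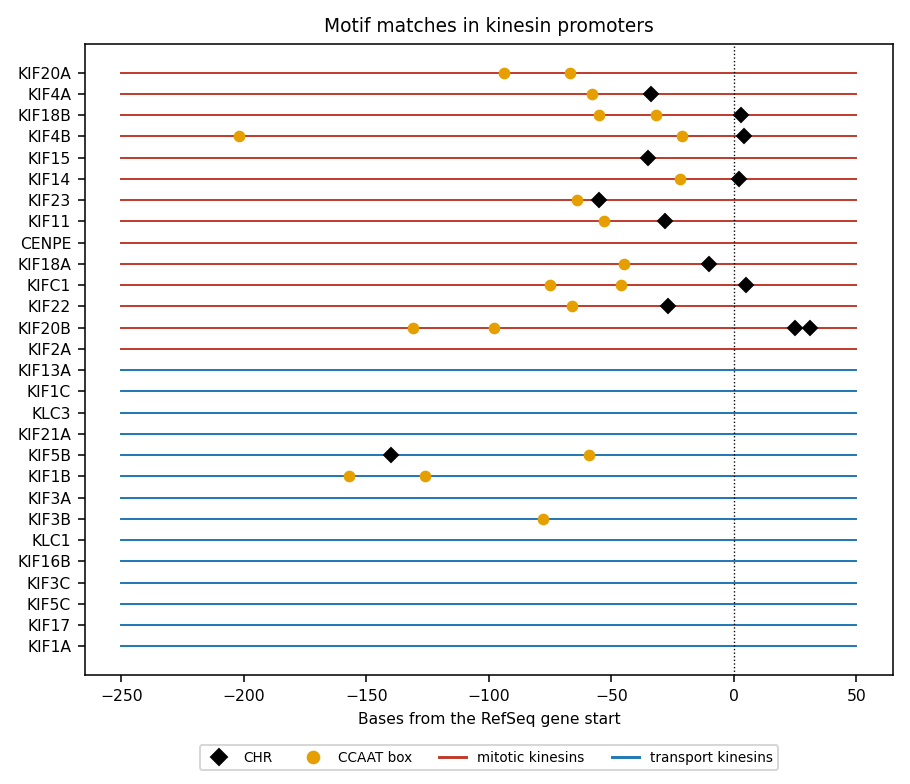
Position of CHR (diamonds) and CCAAT box (circles) matches in bases from the RefSeq gene start, for the 14 mitotic and 14 transport kinesins with a window, 1 line per gene. In the mitotic kinesins the CHR matches sit from 55 bases before to 31 bases after the start, downstream of a CCAAT box in 10 of the 11 genes.

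The ratios of the mitotic kinesins lay mostly a little above 0 with the main scaling, by an amount that depended on the scaling. A gene was counted where it reached 1 CPM (count per 1000000 of the effective library size) in at least 1 library, which 13 of 14 did. Of the 13, 11 lay above 0, against 51.0% of all genes and 54.6% of those at 10 CPM or more. None of the 13 differed 2-fold, a size reached upward by 2.40% and downward by 4.54% of the 13225 genes past that level. Their median log2 ratio was 0.14, against 0.01 over all those genes, and the ratios ran from -0.17 to 0.58. With plain library totals the median was 0.018 and with the deposited TPM 0.017, as these settings shifted the median of all genes by -0.12 and -0.15. A rule of 1.2-fold was chosen after the values were seen. With the main scaling it was met upward by 5 and downward by 0 of the 13, against 23.6% and 24.7% of all genes. Upward it was met by 3 with plain totals and by 3 with the deposited TPM. Downward it was met by KIF20B and KIF2A under both of these settings. Their log2 ratios were -0.267 and -0.286 with plain totals, and -0.301 and -0.316 with the deposited TPM. Of the genes above 0 under the main scaling, KIFC1 and KIF22 lay below 0 with plain library totals. KIF11, CENPE and KIF22 did so with the deposited TPM.

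The 3 highest were KIF20A, KIF4A and KIF18B. KIF20A, the midzone motor that brings Aurora B to the central spindle, had 2144 reads in library D1 and 1527 in library C1, a log2 ratio of 0.58 (0.48 to 0.68). KIF4A, the chromokinesin that works with PRC1 in the midzone, had 1048 and 789 reads (0.50, 0.37 to 0.63). KIF18B, which limits the length of astral microtubules, had 1667 and 1270 reads (0.48, 0.38 to 0.59). All 3 had more reads in library D1, and their counting intervals did not reach 0. The share of all genes with such an interval is not given here. These intervals leave out the choice of scaling. With plain totals the ratios of KIF20A, KIF4A and KIF18B were 0.46, 0.38 and 0.36. With the deposited TPM they were 0.43, 0.35 and 0.34. KIF4B, an intronless copy of KIF4A that can share its reads, had only 5 and 4.

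KIF15, which helps to hold the spindle bipolar, had 474 reads in library D1 and 401 in library C1 (log2 ratio 0.33), and KIF14, a cytokinesis motor, had 1714 and 1457 (0.32). These were the last 2 inside the 1.2-fold rule. KIF23 lay just outside it, with 2896 and 2600 reads (0.25). KIF11, the tetrameric motor that slides the poles apart, had 2667 and 2581 reads (0.14). CENPE, the kinetochore motor that brings chromosomes to the equator, had 1342 and 1307 (0.13), and KIF18A, which damps chromosome movement at the metaphase plate, had 564 and 552 (0.12, -0.05 to 0.29). KIFC1 had 1858 reads in each library and KIF22 had 2650 and 2767 (0.03). For KIF18A, KIFC1 and KIF22 the counting interval included 0.

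Below 0 were KIF20B, a midzone motor of late cytokinesis, with 2079 reads in library D1 and 2451 in library C1 (log2 ratio -0.15, -0.23 to -0.06), and KIF2A, with 1930 and 2307 (-0.17, -0.26 to -0.08). KIF2A is a kinesin-13, like KIF2C, and takes microtubules apart at spindle poles. Within kinesin-6, KIF20A, KIF23 and KIF20B thus had ratios of 0.58, 0.25 and -0.15. The interquartile range of all genes ran from -0.26 to 0.25.

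Transport kinesins were spread more widely and around a median of -0.06. Of 21 members, 18 reached 1 CPM, with 7 above and 11 below 0, against 51.0% of all genes above. A 2-fold size was reached by 1 member upward and 1 downward, against the 2.40% and 4.54% of all genes. By the 1.2-fold rule 3 of the 18 were higher and 7 lower, against 23.6% and 24.7% of all genes. With plain totals, DESeq2 size factors or the deposited TPM, 8 were lower. The interquartile range of the members was 0.74 on the log2 scale, against 0.24 for mitotic kinesins and 0.51 for all genes. All 13 mitotic kinesins but only 15 of the 18 transport kinesins reached 10 CPM. The part of such low counts in the wider spread was not tested.

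**Figure D3:**
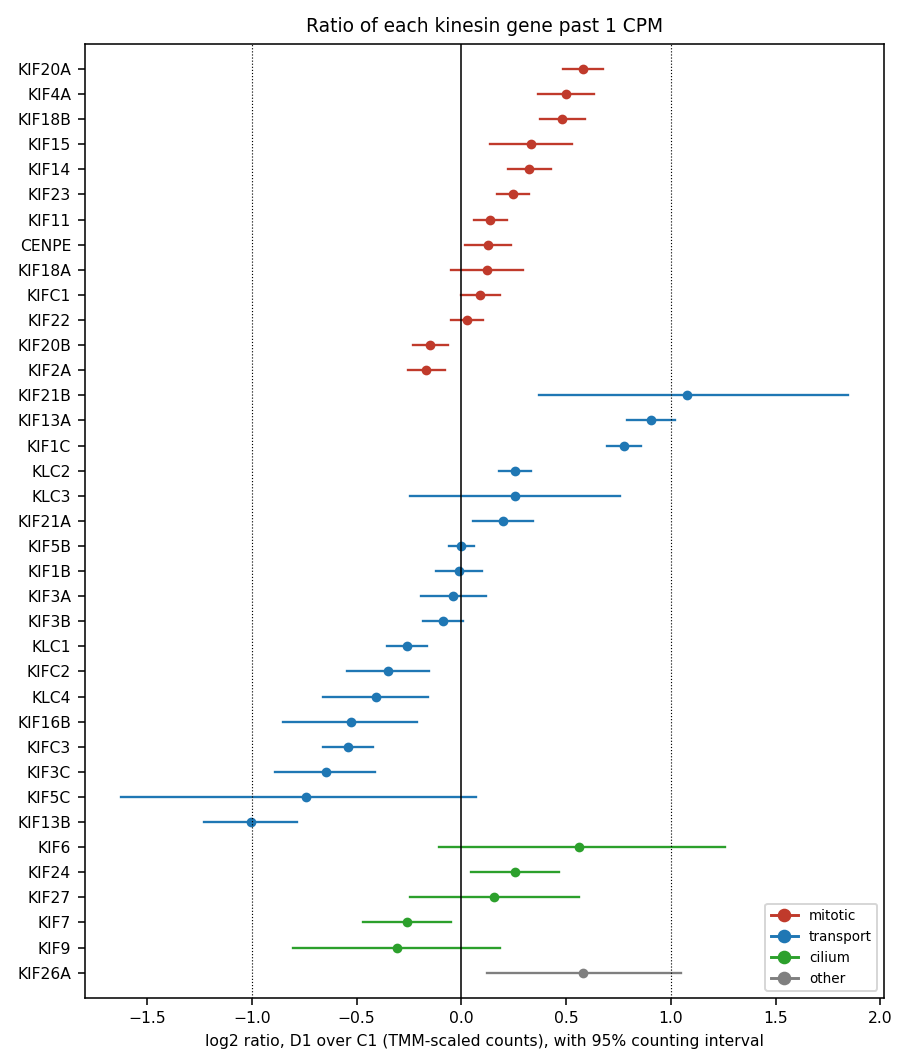
Log2 ratio, library D1 over library C1, of the 37 kinesin genes at 1 CPM or more, with 95% counting intervals, grouped and coloured by class; dotted lines mark 2-fold. Mitotic kinesins lie between -0.17 and 0.58, and transport kinesins reach from KIF13B at 2-fold lower to KIF21B at 1.08.

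The kinesin-3 motors of vesicles and endosomes included high and low members. KIF13A, a motor of recycling endosomes, had 1703 reads in library D1 and 969 in library C1, a log2 ratio of 0.90 (0.79 to 1.02). Its relative KIF13B, a motor of membrane vesicles, had 246 and 525 reads, 0.499 times the level (95% counting interval of the log2 ratio -1.23 to -0.78), just inside the 2-fold mark. In TPM, KIF13A was 9.38 times KIF13B in library D1 and 2.57 times in library C1. KIF1C, a motor of vesicles and integrins, had 3094 and 1924 reads (0.78, 0.69 to 0.86) and was 54.7% of the TPM of the 6 kinesin-3 transport genes in library D1 and 45.2% in library C1. KIF16B, a motor of early endosomes, was lower in library D1 with 138 and 212 reads (-0.53), and KIF1B, a motor of vesicles and mitochondria, had 1307 and 1403 (-0.01). The neuronal KIF1A had 5 and 12 reads, too few to place.

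In conventional kinesin the most abundant chains differed by less than 1.2-fold with the main scaling. Of those at 10 CPM or more, KLC4 alone passed that size under this scaling. KIF5B, the ubiquitous heavy chain, had 4285 reads in library D1 and 4560 in library C1, with a counting interval of -0.06 to 0.06 (log2 ratio -0.12 with plain totals), and made up 99.4% and 99.1% of kinesin-1 heavy chain TPM. The neuronal heavy chains KIF5C (20 and 36 reads) and KIF5A (4 and 11) were rare. KLC2 had 2951 reads in library D1 and 2631 in library C1 (log2 ratio 0.26), while KLC1 had 1602 and 2042 (-0.26) and KLC4 225 and 318 (-0.41). KLC1 also passed 1.2-fold downward under the other scalings. Its log2 ratio was -0.27 with DESeq2 size factors, -0.38 with plain totals and -0.40 with the deposited TPM. The TPM of KLC2 was 2.24 times that of KLC1 in library D1 and 1.58 times in library C1. KLC3 was scarce, with 74 and 66 reads (0.25, -0.24 to 0.76). In the GENCODE v29 annotation 40.6% of the exonic bases of KLC1 also belong to other genes. Among them are BAG5 and XRCC3 on the other strand and AL139300.1 on the same strand. Whether the counting used strand is not stated, and strand would not separate AL139300.1, so the reads of KLC1 are uncertain. The next largest shares among the members were 17.9% in KIF9, 17.8% in KIFC2 and 14.6% in KLC3.

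Heterotrimeric kinesin-II, which moves cargo and assembles cilia, had core motors near 0 with the main scaling and a lower neuronal subunit. KIF3A had 645 reads in library D1 and 705 in library C1 (log2 ratio -0.04), and KIF3B 1719 and 1944 (-0.09). Both counting intervals included 0. With plain totals the ratios of KIF3A and KIF3B were -0.157 and -0.206, and with the deposited TPM -0.127 and -0.238. KIF3C, which pairs with KIF3A in neurons, had 235 and 392 (-0.65, -0.89 to -0.41). The non-motor subunit KIFAP3 had 294 and 459 (-0.55, -0.77 to -0.34). KIF17, a homodimeric kinesin-2, had 4 and 8 reads.

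Among the other transport kinesins, KIF21B, a neuronal and lymphocyte motor, was the member at least 2-fold higher in library D1, but from 50 reads in library D1 and 25 in library C1 (log2 ratio 1.08, 0.37 to 1.84). With plain library totals its ratio was 0.96, under 2-fold. KIF21A, which slows microtubule growth at the cell cortex, had 831 and 771 reads (0.20). KIFC3, a minus-end motor of adherens junctions and the Golgi, had 928 and 1436 (-0.54, -0.66 to -0.42), and KIFC2, a neuronal minus-end motor, 372 and 505 (-0.35). Both minus-end transport motors were thus lower in library D1, and the mitotic minus-end motor KIFC1 had equal reads. The neuronal markers RBFOX3 and SNAP25 had at most 9 reads in either library, and MAP2 had 18 in library D1 and 95 in library C1. SYT1, a synaptic vesicle protein, had 203 and 256. These markers summed to 6.02 TPM in library D1 and 9.04 TPM in library C1, and their part in the values of the neuronal kinesins was not tested.

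Kinesins of cilia had low levels, with a summed 26.44 TPM in library D1 and 31.44 TPM in library C1. Of the 5, all past 1 CPM, 1 was at least 1.2-fold higher and 1 lower, against 23.6% and 24.7% of all genes, and 0 differed 2-fold. The higher was KIF6 and the lower KIF9, both from few reads. KIF7 and KIF24 lay just under 1.2-fold with the main scaling. KIF7, the Hedgehog regulator at the tip of the primary cilium, had 335 reads in library D1 and 427 in library C1 (log2 ratio -0.26, -0.47 to -0.05). KIF24, a kinesin-13 that restrains growth of the primary cilium, had 406 and 362 (0.26, 0.05 to 0.46), and its window held a CHR and 3 CCAAT boxes. The motile cilium kinesin KIF27 had 109 and 104 reads. KIF9 had 63 and 83 (-0.30, -0.80 to 0.18) and KIF6 46 and 33 (0.56, -0.11 to 1.26). All of these motile cilium kinesins had intervals that included 0. KIF26A, an atypical kinesin that regulates signalling without moving, had 97 and 69 reads (0.58, 0.12 to 1.05). KIF26B (15 and 14 reads), KIF12 (3 and 2) and KIF25 (1 and 3) were too rare to place.

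Set against each other, the median of the mitotic kinesins exceeded that of the transport kinesins by 0.20 on the log2 scale. A common scaling cancels in this difference. It was 0.23 with genes at 10 CPM or more and 0.27 by means, but 0.45 without a filter and 0.39 with the 10 genes of whole counts only. The mitotic kinesins were also the more abundant, with a median of 6.63 for the mean log2 CPM against 5.34 for transport kinesins and 4.92 for all genes. Among the 9855 genes at 10 CPM or more, 54.6% lay above 0, against 51.0% of the 13225 genes. At that level 5 of 13 mitotic kinesins were at least 1.2-fold higher, against 23.9% of genes, and 6 of 15 transport kinesins were at least 1.2-fold lower, against 19.5%.

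**Figure D4:**
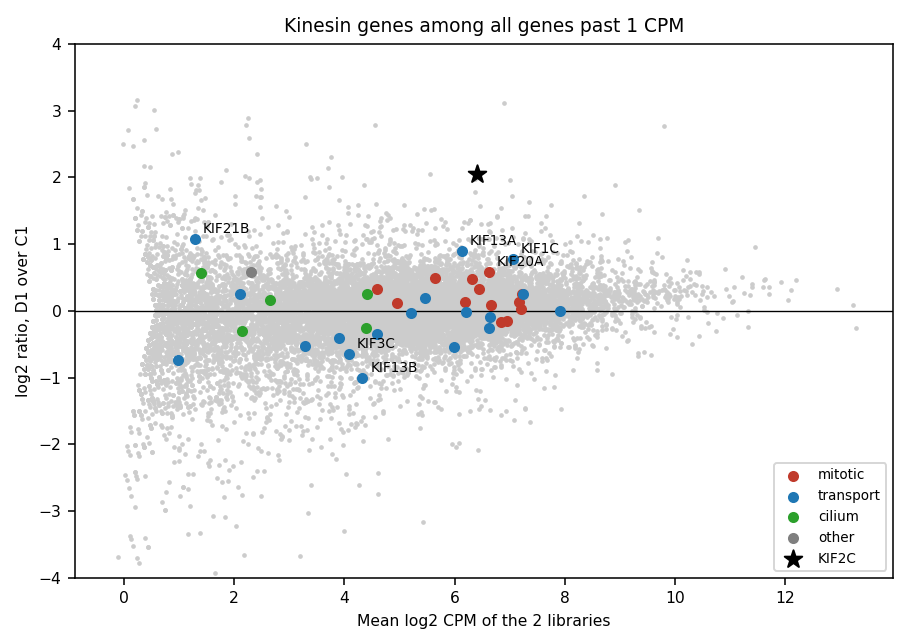
Log2 ratio, library D1 over library C1, against mean log2 CPM, with each of the 13225 genes at 1 CPM or more in grey, kinesins coloured by class and KIF2C as a star; 23 genes beyond 4 on the log2 scale are not drawn. The mitotic kinesins form a band close to 0 at high abundance, far below KIF2C at 2.04.

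With the main scaling, the non-kinesin partners of each class had medians close to those of their motors. Of 18 mitotic partners 16 lay above 0, against 51.0% of all genes, and the median was 0.16. None of the 18 differed 2-fold, against 2.40% of all genes higher and 4.54% lower, and 7 were at least 1.2-fold higher, against 23.6%. The highest were KNSTRN, a spindle and kinetochore protein (1614 reads in library D1 and 992 in library C1, log2 ratio 0.79), and PLK1, the mitotic Polo kinase (4536 and 3310, 0.54). The lowest were SPAG5, a spindle protein (2085 and 2372, -0.10), and CDCA8, a chromosomal passenger subunit (928 and 1033, -0.06). PRC1, the midzone partner of KIF4A, had a ratio of 0.11, RACGAP1, the partner of KIF23 in centralspindlin, 0.16, and CIT, the citron kinase bound by KIF14, 0.06. Other scalings were not run for the partner lists. Plain library totals and the deposited TPM shifted the median of all genes by -0.12 and -0.15. Of the 16 partners above 0, BUB1B, PRC1, HMMR, CIT, KPNA2 and AURKB had a lower deposited TPM in library D1 than in library C1. The rest of the 16 had a higher one. A CHR was found in 12 of the 14 mitotic partners with a window (85.7%), against 11.3% of the windows of genes at 1 CPM or more.

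Of 22 cargo adaptors and regulators at 1 CPM or more, 10 lay above and 12 below 0, against 51.0% of all genes above, with a median of -0.06. None of the 22 differed 2-fold, against 2.40% of all genes higher and 4.54% lower. MAP7D1, which recruits kinesin-1 to microtubules, had 3465 reads in library D1 and 2200 in library C1 (log2 ratio 0.75), and RHOT2, a mitochondrial GTPase, 1377 and 1184 (0.31). The lowest were TRAK2, which links kinesin to mitochondria (328 and 541, -0.63), and KIFAP3. A CHR was found in 1 of 19 adaptor windows (5.26%), against 11.3% of the windows of genes at 1 CPM or more.

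Dynein and dynactin, the motor of the opposite direction, gave 10 of 23 genes above 0, against 51.0% of all genes, and a median of -0.06. At 2-fold, 1 gene was higher and 0 were lower, against 2.40% and 4.54% of all genes. That gene was ACTR10, a dynactin pointed-end subunit, with 931 reads in library D1 and 405 in library C1 (log2 ratio 1.29, 1.12 to 1.46). DCTN1, the largest dynactin subunit, had 2629 and 1994 (0.49). The lowest were DCTN4 (1607 and 2401, -0.49), also of the dynactin pointed end, and DYNC1I1, a dynein intermediate chain (51 and 71, -0.38). The dynein heavy chain DYNC1H1 had 8327 and 9284 reads (-0.07).

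**Figure D5:**
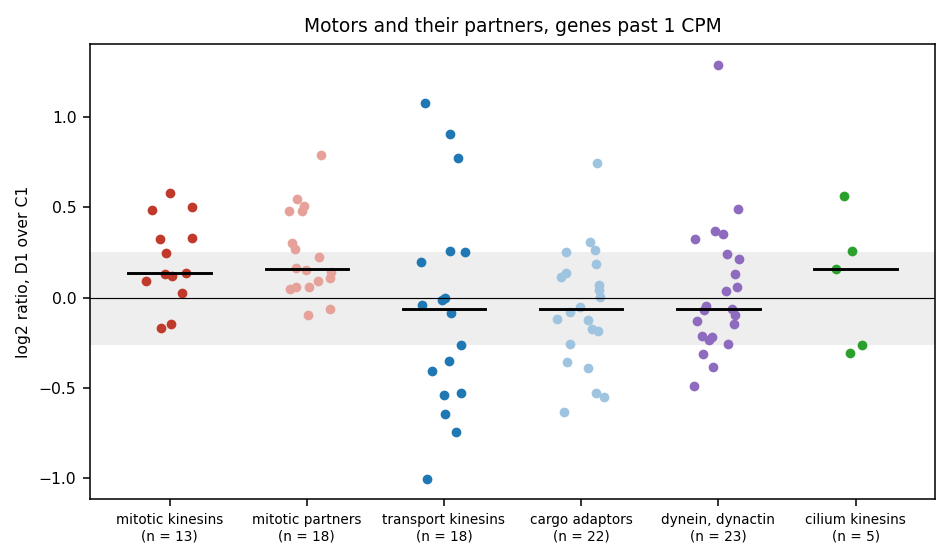
Log2 ratio, library D1 over library C1, of each gene at 1 CPM or more in 6 groups of motors and partners, with the median as a black bar and the interquartile range of all 13225 genes as a grey band. With the main scaling, mitotic kinesins and mitotic partners have medians of 0.14 and 0.16. Transport kinesins, cargo adaptors and dynein genes each have -0.06.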

How the data were processed

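Total RNA was sequenced from 1 library per condition at day 2. The submitters' processing notes name Bowtie2, RSEM and hg38, with no version or annotation. The authors deposited estimated counts per gene without normalization, according to the header, and 48.2% of values in library D1 and 48.9% in library C1 were not whole. The authors also deposited TPM, used here for levels between genes. The authors' deposited FPKM entered no comparison.

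Estimated counts were rounded and scaled by TMM in edgeR 4.0.16 under R 4.3.3 (factors 0.960 for library D1 and 1.04 for library C1), so 1 CPM equals 17.8 reads in library D1 and 19.0 in library C1. The log2 ratio is library D1 over library C1 after adding 0.5 counts, with an exact Clopper-Pearson 95% interval of the share of reads. PCR reads are not independent molecules, so intervals cover counting error only. With 1 library per condition no test was run. The letters of the library codes were read as control and knock-down for bookkeeping only, and the KIF2C reads go against that reading. Gene members, classes and lists were chosen with earlier results of these data known. Every member at 1 CPM or more was named, and the 2 highest and 2 lowest of each partner list; other partners were chosen after their values were seen. The intervals were tested on simulated counts with Poisson error only, so that test does not cover other variation between libraries. Coordinates and promoters are from RefSeq, GRCh38.p14; exon overlaps are from GENCODE v29. Motif searches were chosen after the counts were seen. Alternatives were plain library totals, DESeq2 1.42.0 size factors, deposited TPM ratios, other filters, 5 counts added, whole counts only, means, and other class limits. KIF2B and KIF19, also listed by function, were not analysed here.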

Additional observations from a re-analysis of the deposited data

How the results depend on the processing

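The mitotic median log2 ratio of 0.14 was 0.018 with plain library totals and 0.017 with the deposited TPM, which shifted the median of all genes by -0.12 and -0.15. The transport median of -0.06 was -0.22 with the deposited TPM, -0.26 without a filter (21 genes) and -0.26 for the 6 genes with whole counts. The mitotic minus transport difference of 0.20 was 0.45 without a filter and 0.39 with whole counts only (10 genes). It was above 0 under all 9 alternatives run, but not all of these could move it. Plain totals and DESeq2 size factors could change it only through the filter, because a common scaling cancels. With 5 counts added it was 0.199. Kinesins at 2-fold, 2 in all, numbered 1 with plain totals, 1 with the deposited TPM and 1 at 10 CPM or more, 5 without a filter and 0 with 5 counts added. Mitotic kinesins at least 1.2-fold higher numbered 3 with plain totals and 3 with the deposited TPM, in place of 5. Under both settings KIF20B and KIF2A were at least 1.2-fold lower, in place of 0. Transport kinesins at least 1.2-fold lower numbered 8 with plain totals, DESeq2 size factors or the deposited TPM, in place of 7. Counts above 0 and at 1.2-fold were added after seeing the data. Beyond these shifts the cause was not tested. Over all genes, 34.6% of 2-fold differences were upward, and 23.8% with plain totals. Among the 37 named kinesins the sign changed for 3 with plain totals (KIFC1, KIF22 and KIF5B) and 5 with the deposited TPM (KIF11, CENPE, KIF22, KIF5B and KIF27). KIF5B also changed sign with DESeq2 size factors and with 5 counts added. No library could be left out, and only 13 of the 37 had whole counts in both libraries. No paired analysis was possible because each condition has 1 library.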
